A study of Mus musculus with 24 samples.

Results

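Oxidative phosphorylation is carried out by 5 protein complexes of the mitochondrial inner membrane, and the genes described here are those of their subunits that sit in the nucleus. They were taken as all rows of the count table whose symbol belongs to the series Ndufa, Ndufb, Ndufc, Ndufs or Ndufv with a number (complex I), Sdha to Sdhd (complex II), Uqcr (complex III), Cox4 to Cox8 (complex IV) or Atp5 (complex V). The rule used symbols and no measured value, and found 84 of 40836 genes, which are 37, 4, 8, 18 and 17 for complexes I to V. Of these, 82 passed the filter on low counts. The exceptions were Cox7a1 and Cox8c, with 53 and 5 counts over all 24 libraries. The symbols miss a few true subunits (Ndufab1 of complex I and Cyc1 of complex III), and they place Ndufa4 with complex I, although its protein is now assigned to complex IV. Of the 13 genes that the mitochondrial genome itself encodes, 0 were in the table, so the description covers the nuclear part only.

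Complexes I and II take electrons from NADH and succinate, complex III passes them from ubiquinone to cytochrome c, complex IV hands them to oxygen, and complex V, the ATP synthase, uses the resulting proton gradient to make ATP. Neurons depend on this pathway for most of their ATP. Several complex IV subunits exist as paired isoforms from separate genes, one general and one of heart and skeletal muscle (Cox6a2, Cox7a1, Cox8b), of testis (Cox6b2, Cox7b2, Cox8c) or of lung and oxygen-sensing cells (Cox4i2).

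The study sequenced polyadenylated RNA from mouse brain in 24 libraries, named by 1 of 2 E codes, E3 and E4, by 1 of 3 time codes, which are 05, 10 and 15, and by a replicate number. Each of the 6 combinations has 4 libraries. The series title concerns ApoE4, but the labels spell out neither code, and strain, genotype, sex, age and brain region are not given in the sources used here. The titles also name a month, with 4 libraries in each of 6 months, and number the libraries of a month as biological replicates. The labels do not otherwise say whether each library is a different animal. The p-values therefore reflect only how far these samples spread, and how much of that is technical is not known. Total counts per library ran from 37366000 to 99502000.

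The 8 libraries in table columns with a number that is a multiple of 3 differ from the other 16 in markers of brain region, and the difference runs across the labelled groups. In the multiple-of-3 columns 12 cerebellum and hindbrain markers averaged 6.55 to 7.66 log2 CPM, against -0.29 to 2.01 in the others. CPM are counts scaled to a common library size by library total and TMM factor. Excitatory forebrain neuron markers averaged 4.37 to 6.01 against 6.31 to 8.30, and microglia markers 3.78 to 4.43 against 4.80 to 5.25. Striatum markers were lower in 8 of 8, and choroid plexus and ependyma markers higher in 5 of 6. Pan-neuronal markers overlapped, at 9.14 to 9.57 against 9.24 to 9.64. The part of these markers in the results below was not tested. The class is no group of the study. It holds E3-05 2, E3-10 1, E3-10 4, E3-15 3, E4-05 3, E4-10 2, E4-15 1 and E4-15 4, that is 4 libraries of each E code. Unless stated otherwise, differences below are log2 fold changes from 1 edgeR fit with the 6 groups and a term for this class. A gene was called at a Benjamini-Hochberg adjusted p under 0.05 over all 20437 genes tested. The E code within a class and the interactions come from further fits. Differences within months are plain differences of mean log2 values. A month holds only 1 multiple-of-3 column against 3 others, or 2 against 2.

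Between the 2 kinds of column the respiratory genes moved little. In multiple-of-3 columns 24 of the 82 tested members were higher and 10 were lower, or 41.5% in all. Of all genes 57.5% were called, with 30.1% higher and 27.4% lower. The median member differed by 0.043 and the median gene by 0.035. By complex the medians ran from -0.038 in complex IV to 0.16 in complex II, so the members had no single direction. The size of change was smaller in members than in all genes. The median absolute difference was 0.096 for members and 0.346 for all genes, and 0.229 for the 4008 genes at least as abundant as the median member. Of the members, 95.1% stayed within 0.33 log2 units, against 48.4% of all genes and 62.9% of the abundant ones. The 4 members outside that band are all complex IV isoforms. Of the 34 calls, 16 (12 higher and 4 lower) held in the same direction under all 38 alternative settings. The split depends on the scaling, since with library totals alone 43 members were higher and 4 lower. These calls were 57.3% of members, against 60.3% of all genes. That scaling moved the median of all genes from 0.035 to 0.140 and that of the members to 0.149. In bulk tissue, fewer cells of a type and less RNA per cell cannot be told apart.

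**Figure D1:**
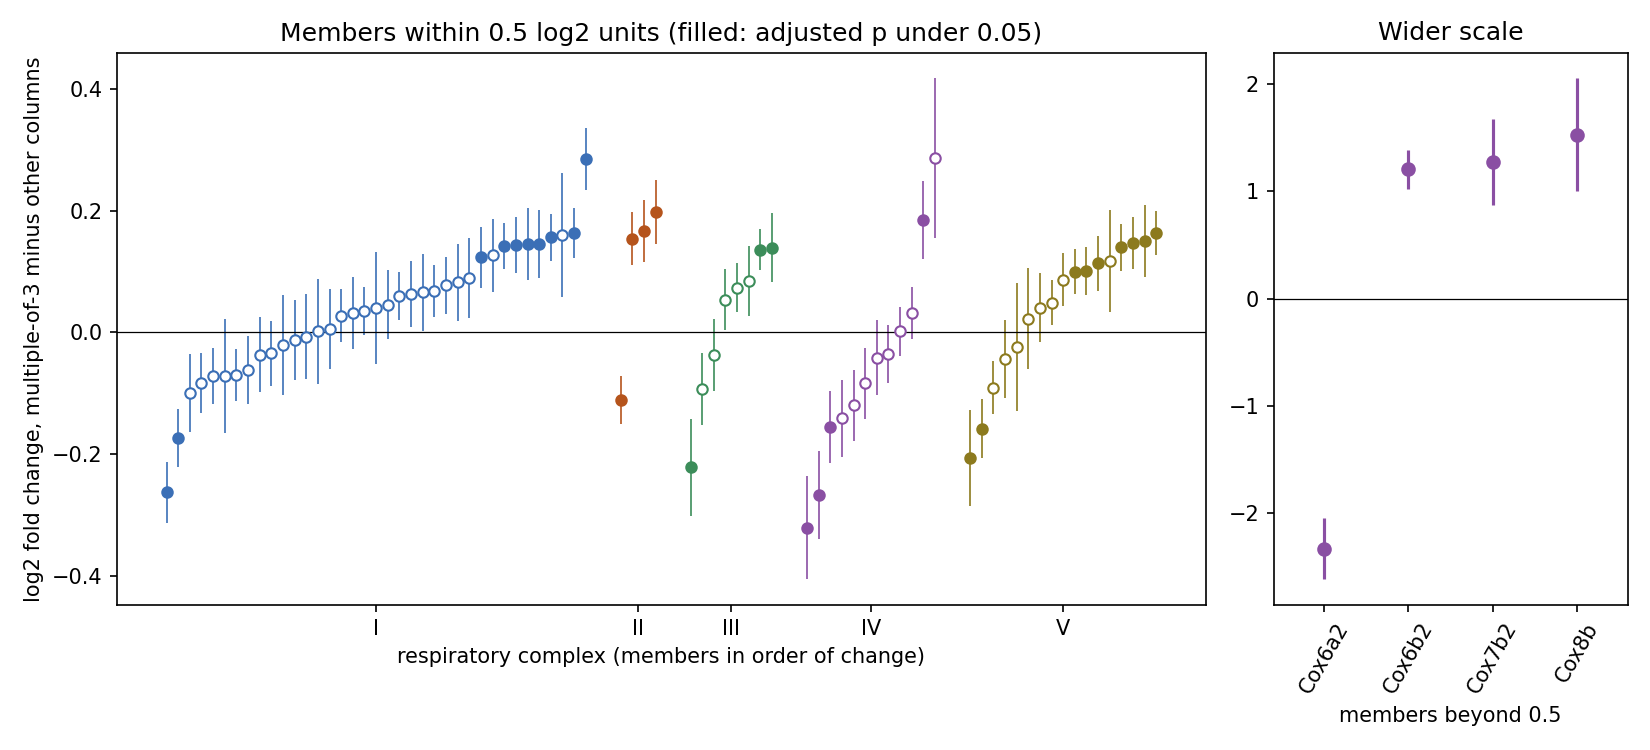
Log2 fold change (multiple-of-3 minus other columns, y axis) of the members tested, ordered within each complex, with SE bars and filled points for an adjusted p under 0.05. Left, members within 0.5 log2 units; right, on a wider scale, Cox6a2 at -2.33 and Cox6b2, Cox7b2 and Cox8b between 1.20 and 1.53.

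Cox6a2 was the member with the lowest fold change. It encodes the heart and skeletal muscle isoform of subunit 6A, and in brain it has been placed in fast-spiking interneurons. Cox6a2 lay at 3.48 to 8.65 CPM in the 16 other columns (median 6.39) and at 0.374 to 2.97 CPM in the 8 multiple-of-3 columns (median 0.956). The classes did not overlap, and E4-10 2 (2.97 CPM) and E4-15 4 (2.01 CPM) were the highest of the 8. The difference was -2.33 (SE 0.29, adjusted p = 6.65e-07). Without overlap its sign is fixed within each of the 6 titled months, where it ran from -2.99 to -2.04. The 7 parvalbumin and fast-spiking interneuron markers averaged 7.33 to 7.70 log2 CPM in multiple-of-3 columns and 7.05 to 7.90 in the others, with 3 higher and 3 lower. Skeletal muscle markers averaged -2.31 to 1.08 and -1.55 to 0.16. The part of either cell type in the result was not tested.

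The general isoform Cox6a1 fell in the same direction by far less. It lay at 166 to 245 CPM in the other columns (median 204) and 145 to 186 CPM in multiple-of-3 columns (median 171). The ranges overlapped, with a difference of -0.27 (SE 0.073, adjusted p = 0.00353). Cox6a2 stood far below Cox6a1 in level. Per kb of transcript, the median over 24 libraries was 7.49 CPM for Cox6a2 and 325 CPM for Cox6a1.

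Cox6b2, the testis isoform of subunit 6B, went the other way. It had 0.494 to 1.61 CPM in the other columns (median 1.09) and 1.53 to 3.47 CPM in multiple-of-3 columns (median 2.79). Only the lowest multiple-of-3 library, E3-10 1, lay inside the range of the others. The difference was 1.20 (SE 0.185, adjusted p = 1.15e-05), positive in 6 of 6 months. Its general partner Cox6b1 lay at 71.3 to 94.6 CPM in the other columns and at 65.2 to 96.4 CPM in the 8 (difference -0.041, SE 0.062, adjusted p = 0.589), and its sign turned with library totals alone (0.063).

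Cox7b2 and Cox8b were also higher, but rest on few counts. Cox8b, the muscle isoform of subunit 8, had 217 counts over all libraries, with 0 to 0.306 CPM in the other columns (median 0.0876) and 0.0869 to 0.601 CPM in the 8 (median 0.294). The classes overlapped (difference 1.53, SE 0.53, adjusted p = 0.0176), and the call ended without E4-05 3 or without E4-10 2. Cox7b2, the testis isoform of subunit 7B, had 303 counts, at 0.0217 to 0.600 CPM (median 0.131) and 0.0694 to 0.744 CPM (median 0.415). Its difference was 1.27 (SE 0.40, adjusted p = 0.0101), and the call ended without E3-15 3. Cox7b, the general partner, stood at 0.032 (SE 0.043, adjusted p = 0.539).

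Cox4i2, the isoform of subunit 4 linked to oxygen sensing and to pericytes in brain, did not pass. It lay at 0.949 to 2.43 CPM in the other columns (median 1.68) and at 1.60 to 2.78 CPM in the 8 (median 2.07). The classes overlapped, with a difference of 0.29 (SE 0.13, adjusted p = 0.0681). It passed without E4-10 2 (0.36) or without E3-15 1 (0.31), and under 4 of the 14 other settings, and it stood at 0.18 without E3-05 2. Mural cell markers averaged 4.20 to 4.96 log2 CPM in the 8 and 3.96 to 5.02 in the others. The general Cox4i1, at 289 to 372 CPM over all libraries, stood at -0.035 (SE 0.048, adjusted p = 0.552), which turned to 0.070 with library totals alone. Cox7a1 reached at most 0.185 CPM and Cox8c at most 0.0529 CPM in any library.

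**Figure D2:**
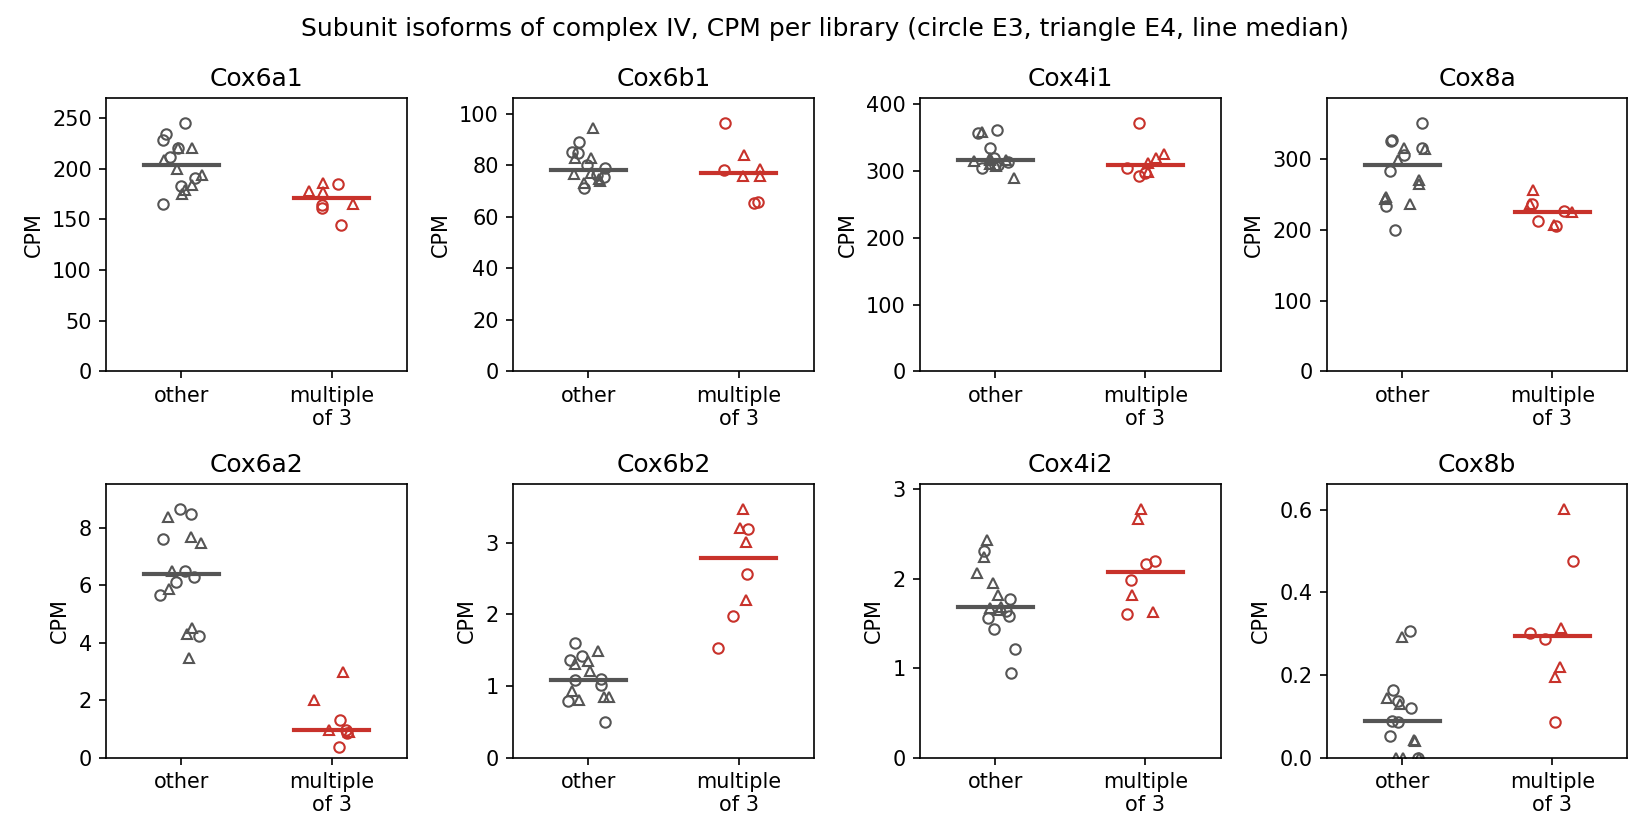
CPM per library (y axis, linear from 0) of the general isoform (top) and the tissue isoform (bottom) of 4 complex IV subunits, for the 16 other and the 8 multiple-of-3 columns; circles are E3, triangles E4, lines medians. Cox6a2 has no overlap between the classes (3.48 to 8.65 against 0.374 to 2.97 CPM), while Cox6a1, Cox6b1, Cox4i1 and Cox8a overlap.

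Among the general complex IV subunits, Cox8a was lower and Cox5a higher. Cox8a lay at 199 to 352 CPM in the other columns (median 292) and at 206 to 257 CPM in the 8 (median 226). The 8 were all in the lower part of the range of the others (difference -0.32, SE 0.085, adjusted p = 0.00281), and the difference was negative in 6 of 6 months. Cox7a2l, which also helps join complexes III and IV into supercomplexes, stood at -0.16 (SE 0.060, adjusted p = 0.031). That call ended under 5 other settings and without any 1 of 5 libraries (E3-05 2, E4-05 3, E4-10 1, E3-15 3 or E3-15 4). Cox5a, a subunit around the catalytic core, stood at 0.18 (SE 0.064, adjusted p = 0.0172), and not past the threshold without E3-10 1, E4-10 2 or E4-15 3. Cox6c (-0.14, adjusted p = 0.0609) did not pass, but it did in 8 of the 24 fits that leave out 1 library (E3-05 3, E4-05 2, E3-10 1, E3-10 3, E4-10 2, E4-10 3, E4-10 4 or E4-15 3), at values down to -0.19. It also passed with DESeq2, with RLE factors, with month as covariate and without the 2 libraries rich in Gh. Cox7a2 (0.0019, adjusted p = 0.972) had no stable sign, since it was negative in 20 of the 24 fits without 1 library and under 5 of the 14 other settings.

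The upstream sequences of 3 of these genes are shown: Cox6a1 and Cox8a, which were both lower, and Cox8b, the muscle partner of Cox8a, which was higher. Cox8a and Cox8b are 1 pair of isoforms, and Cox6a2 is named only. Each line gives the 250 bases before the start of the gene, read on its strand from RefSeq (GRCm38.p6). The positions are chr5:115348959-115349208 for Cox6a1, chr19:7217617-7217866 for Cox8a and chr7:140900447-140900696 for Cox8b, all on the minus strand. Capitals mark matches to the letters searched.
Cox6a1: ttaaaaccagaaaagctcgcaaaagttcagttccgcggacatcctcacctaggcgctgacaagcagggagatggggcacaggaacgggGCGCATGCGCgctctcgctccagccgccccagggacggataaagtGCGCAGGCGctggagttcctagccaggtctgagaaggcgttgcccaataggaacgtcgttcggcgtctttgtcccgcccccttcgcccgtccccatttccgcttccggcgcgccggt
Cox8a: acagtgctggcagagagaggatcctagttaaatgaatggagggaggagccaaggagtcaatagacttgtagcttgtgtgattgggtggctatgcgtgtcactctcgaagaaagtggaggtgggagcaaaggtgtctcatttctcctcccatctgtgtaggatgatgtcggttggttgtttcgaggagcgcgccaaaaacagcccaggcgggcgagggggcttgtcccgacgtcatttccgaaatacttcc
Cox8b: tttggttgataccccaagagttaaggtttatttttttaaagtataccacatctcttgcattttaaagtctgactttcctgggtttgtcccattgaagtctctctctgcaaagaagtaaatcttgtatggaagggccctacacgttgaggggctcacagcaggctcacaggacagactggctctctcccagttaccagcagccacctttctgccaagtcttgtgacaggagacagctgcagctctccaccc

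The letters searched on both strands were GCGCANGCG (the core bound by Nrf1, a regulator of nuclear respiratory genes), CCGGAAGT (ETS factors such as Gabpa), AAGATGGCG (Yy1) and TATAAA (the TATA box). Cox6a1 held 3 Nrf1 matches, of which 2 overlap on opposite strands, and 26 CpG, Cox8a 0 matches and 11 CpG, and Cox8b 0 matches and 1 CpG. Of the 69 members with an entry, 14 (20.3%) held the Nrf1 letters, against 5.86% of 27025 genes. The shares were 4.35% against 3.23% for ETS, 1.45% against 0.71% for Yy1 and 10.1% against 14.3% for TATAAA. Members outside the tissue isoforms had a median of 15 CpG in this window, the 4 tissue isoforms with an entry 6, and all genes 6. Of the 14 members with the Nrf1 letters, 4 were higher and 2 lower in multiple-of-3 columns. Of 54 tested without them, 16 were higher and 6 lower. Of all genes 57.5% were called, with 30.1% higher and 27.4% lower. A match is a run of letters, not a site shown to be bound.

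All 4 members of complex II were called, with 3 higher and 1 lower. Of all genes 57.5% were called, and 67% of those at least as abundant as the median member. Sdha, the catalytic flavoprotein, lay at 414 to 506 CPM in the other columns (median 453) and at 471 to 557 CPM in the 8 (median 508). The 8 lay in the upper part of the range or above it (difference 0.15, SE 0.044, adjusted p = 0.0048). The membrane anchors Sdhc (0.17, SE 0.051, adjusted p = 0.00799) and Sdhd (0.20, SE 0.053, adjusted p = 0.00293) were higher as well. Sdhb, the iron-sulfur subunit of the same enzyme, was lower. It lay at 85.8 to 99.7 CPM (median 94.8) and, in the 8, at 82.3 to 103 CPM (median 85.9). The highest of all 24 libraries for Sdhb, E3-10 1 (103 CPM), is one of the 8, and the others of the 8 stayed at or below 89.5 CPM. The difference of -0.11 (SE 0.039, adjusted p = 0.0209) did not pass without E4-10 1, E3-15 3 or E3-15 4, nor with library totals alone. It held under 9 of the 14 other settings. The median over the 4 members was higher in multiple-of-3 columns in 6 of 6 months, by 0.068 to 0.18 log2 units.

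In complex I, 8 of 37 members were higher and 2 lower, or 27% called against 57.5% of all genes. Ndufv3, an accessory subunit of the NADH-binding module, had the largest rise. It lay at 33.2 to 43.5 CPM in the other columns (median 38.4) and at 41.9 to 50.8 CPM in the 8 (median 46.5), with a narrow overlap. The difference was 0.29 (SE 0.051, adjusted p = 7.3e-05), positive in 6 of 6 months. The core subunit Ndufs1 (0.16, SE 0.039, adjusted p = 0.00168) rose, as did the membrane subunit Ndufc2 (0.16, SE 0.041, adjusted p = 0.00176). These 3 rises held under all 38 settings. Ndufa4, the subunit now placed in complex IV, stood at 0.12 (SE 0.050, adjusted p = 0.0389), a call that held in only 5 of the 24 fits that leave out 1 library.

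Ndufb9 and Ndufa8 were the 2 members of complex I that fell. Ndufb9, an accessory subunit of the membrane arm, lay at 89.6 to 110 CPM in the other columns (median 99.6) and at 74.4 to 102 CPM in the 8 (median 81.1). Apart from E3-10 1 (102 CPM), the 8 lay below the lowest of the others. Its difference was -0.26 (SE 0.050, adjusted p = 0.000141), negative in 6 of 6 months. Ndufa8 stood at -0.17 (SE 0.048, adjusted p = 0.00377), and not past the threshold with library totals alone.

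In complex III, 2 of 8 members were higher and 1 lower, or 37.5% called against 57.5% of all genes. The Rieske iron-sulfur protein Uqcrfs1 lay at 81.0 to 97.1 CPM in the other columns (median 91.1) and at 95.1 to 107 CPM in the 8 (median 99.1). All of the 8 but E3-05 2 lay above the whole range of the others (difference 0.14, SE 0.033, adjusted p = 0.00151). Uqcrh, the hinge protein, stood at 0.14 (SE 0.057, adjusted p = 0.0411), and held in 8 of the 24 fits without 1 library. Uqcr11, the smallest subunit, stood at -0.22 (SE 0.079, adjusted p = 0.0219), and did not pass without E3-15 3. Uqcrc1, a core protein and the complex III member with the highest median CPM, stood at 0.074 (SE 0.040, adjusted p = 0.123).

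In complex V, 7 of 17 members were higher and 2 lower, or 52.9% called against 57.5% of all genes. The beta subunit Atp5b, which carries the catalytic sites, and the alpha subunit Atp5a1, its partner in the head of the enzyme, were higher. Atp5b lay at 1041 to 1270 CPM in the other columns (median 1130) and at 1166 to 1365 CPM in the 8 (median 1301), and differed by 0.15 (SE 0.043, adjusted p = 0.0057). Atp5b had the highest level per kb of all members with a length (610 CPM). Atp5a1 stood at 0.14 (SE 0.039, adjusted p = 0.00385). Atp5j, coupling factor 6 of the stalk, stood at 0.16 (SE 0.036, adjusted p = 0.000611), at 76.7 to 94.2 CPM against 91.5 to 101 CPM. Atp5g3, one of 3 genes for the membrane ring, stood at 0.15 (SE 0.059, adjusted p = 0.0352), in 10 of the 24 fits without 1 library. Its paralogs Atp5g1 (0.041, adjusted p = 0.553) and Atp5g2 (-0.090, adjusted p = 0.079) did not pass.

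The 2 lower members of complex V were small ones. Atp5d, the delta subunit of the rotor, stood at -0.16 (SE 0.048, adjusted p = 0.00838), and did not pass without E3-15 3. Atp5md, a membrane subunit also known from ATP synthase dimers, stood at -0.21 (SE 0.079, adjusted p = 0.0301), and did not pass without any 1 of 5 libraries (E3-05 2, E4-05 3, E4-10 1, E3-10 4 or E3-15 3). Neither passed with library totals alone. Before any scaling by TMM, complex V members took 0.376% to 0.400% of all counts in the 8 and 0.300% to 0.373% in the others, without overlap. Complex III members took 0.0840% to 0.0869% and 0.0690% to 0.0835%, also without overlap, while the shares of complexes I, II and IV overlapped. All members together took 0.909% to 0.999% in the 8 and 0.773% to 0.952% in the others. With library totals alone the median of all genes was also higher in the 8, by 0.140.

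Among the members, those with longer transcripts tended to the positive side. No value for other genes is given here, so this is not shown to be particular to members. Spearman's rho between transcript length and the difference was 0.225 over the 81 members tested that have a length, and 0.355 over the 76 of them outside the tissue isoforms. The 38 shorter members (median length 559 bases) had a median difference of 0.0036, and the 38 longer ones (1241 bases) 0.065. Members are not independent replicates, and RNA quality was not tested. Several members have processed copies or near-identical genes in the table, such as Ndufs5, Cox7c, Ndufb4, Ndufa11 and Ndufs6, so reads may be split between copies and these counts are uncertain.

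Pairs of members had a positive median correlation from library to library. With the mean of each column class removed, the median SD of a member's log2 CPM was 0.119, against 0.259 for all genes and 0.138 for genes at least as abundant as the median member. Pairs within a complex had a median Pearson r of 0.394 over the 24 libraries (956 pairs), and pairs from different complexes 0.303 (2365 pairs). Libraries share total and scaling, and r was not computed for pairs of other genes. This is therefore a description, and the correlation is not shown to be particular to members. Complex I had 0.434, complex II 0.426 and complex V 0.342, while complexes III and IV had 0.175 and 0.167. Cox8a followed Uqcr11 (0.774), Ndufa1 (0.742) and Cox6a1 (0.725), and Ndufs1 followed Atp5b (0.890) and Uqcrc2 (0.838). Both sets hold members of several complexes.

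The libraries with the highest and lowest member levels belong to no single group. Taking each member's log2 CPM minus its mean over the 24 libraries, the median over members was highest in E3-10 1 (0.172) and E4-05 4 (0.168). The lowest of the 24 were E4-10 4 (-0.095), E4-15 3 (-0.089) and E4-05 2 (-0.086), all E4 libraries in other columns. Next came E3-10 4 (-0.082), a multiple-of-3 column. The plot of library medians shows complex IV at -0.166 in E3-10 4 and at 0.185 in E3-10 1, which share a group and a column class. E3-10 1 also stood at 0.244 in complex II.

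**Figure D3:**
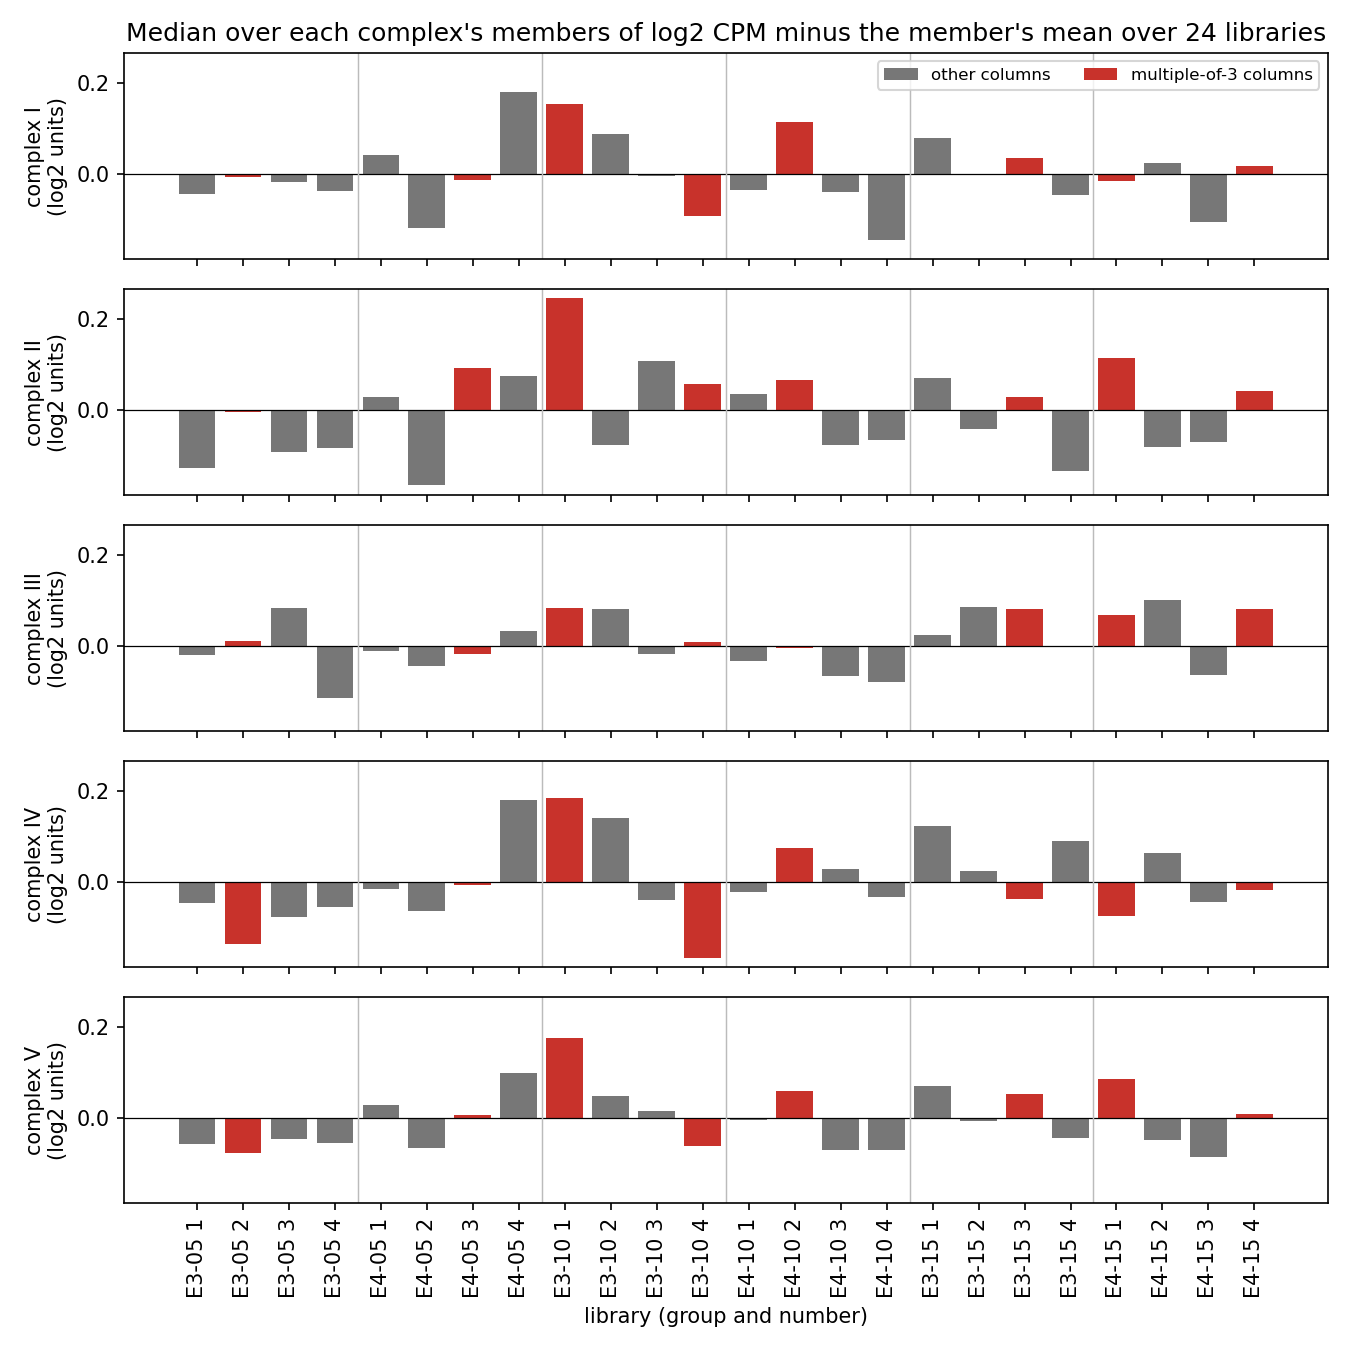
Median over each complex's members of log2 CPM minus the member's mean over the 24 libraries (y axis, log2 units), 1 bar per library in group order; red bars are the 8 multiple-of-3 columns. E4-05 4 and E3-10 1 stand highest over all members, at 0.168 and 0.172.

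The series title concerns ApoE4, and the E code is the comparison nearest to it. It called 0 members. Averaged over time codes, edgeR called 0 of 82 members and 0% of all genes, DESeq2 called 0 members and limma-voom 0, and 1 member had an unadjusted p under 0.05. The median member differed by -0.017 in E4 against E3, and 50 of 82 lay below 0, against 10254 of all 20437 genes. Members are correlated, so counts by sign here and below are not counts of independent replicates. The 2 with the smallest p were Cox4i2 (0.26, SE 0.12, adjusted p = 1.00) and Ndufa12, an accessory subunit of complex I (-0.11, SE 0.064, adjusted p = 1.00). The median moved to 0.0021 without E3-10 2 and to -0.037 without E3-10 4.

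At time code 05 the median member was higher in E4, and 1 library carried much of it. The median was 0.065, with 57 of 82 members above 0, and complex V had the largest median (0.10). The median over all members was 0.016 without E4-05 4 and 0.094 without E4-05 2. 0 members and 0% of all genes were called, DESeq2 and limma-voom called 0 members, and 6 members had an unadjusted p under 0.05. Cox4i2 lay at 1.21, 2.20, 0.949 and 1.64 CPM in E3-05 1 to 4 and at 2.24, 1.82, 2.78 and 2.43 CPM in E4-05 1 to 4. The E4-05 values are higher but for 1 overlap, E4-05 2 with E3-05 2 (difference 0.64, SE 0.21, adjusted p = 0.994). Ndufb1, a small accessory subunit of complex I, lay at 5.65, 5.44, 5.57 and 7.52 CPM in E3-05 and at 7.85, 6.59, 8.58 and 8.92 CPM in E4-05. The groups overlap through E3-05 4 and E4-05 2 (difference 0.40, SE 0.14, adjusted p = 0.994).

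At time code 10 the median had the opposite sign. It was -0.056, with 66 of 82 members below 0 (10330 of 20437 for all genes). The median moved to -0.015 without E3-10 1 and to -0.096 without E3-10 4. 0 members were called, by edgeR, DESeq2 or limma-voom, against 0.00979% of all genes (2 genes) in edgeR, and 0 members had an unadjusted p under 0.05. The smallest p belonged to the complex I subunits Ndufb8 (-0.20, SE 0.094) and Ndufv1, which binds NADH (-0.12, SE 0.063), both with adjusted p = 0.943. Ndufb8 lay at 117, 87.6, 92.2 and 84.5 CPM in E3-10 and at 79.8, 97.1, 74.9 and 73.7 CPM in E4-10. The groups overlap through E4-10 2, which is a multiple-of-3 column like E3-10 1.

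At time code 15 the median was -0.032, with 65 of 82 members below 0 (10089 of 20437 for all genes). It was -0.0070 without E4-15 3 and -0.051 without E4-15 1. 0 members and 0% of all genes were called, DESeq2 and limma-voom called 0 members, and 0 members had an unadjusted p under 0.05. The smallest p belonged to Cox7a2, the general subunit 7A isoform (-0.11, SE 0.064), and Ndufb1 (-0.23, SE 0.14), both with adjusted p = 1.00. Cox6a2, which separated the column classes, stood at 0.027 (SE 0.40), 0.50 (SE 0.41) and 0.043 (SE 0.41) at time codes 05, 10 and 15.

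**Figure D4:**
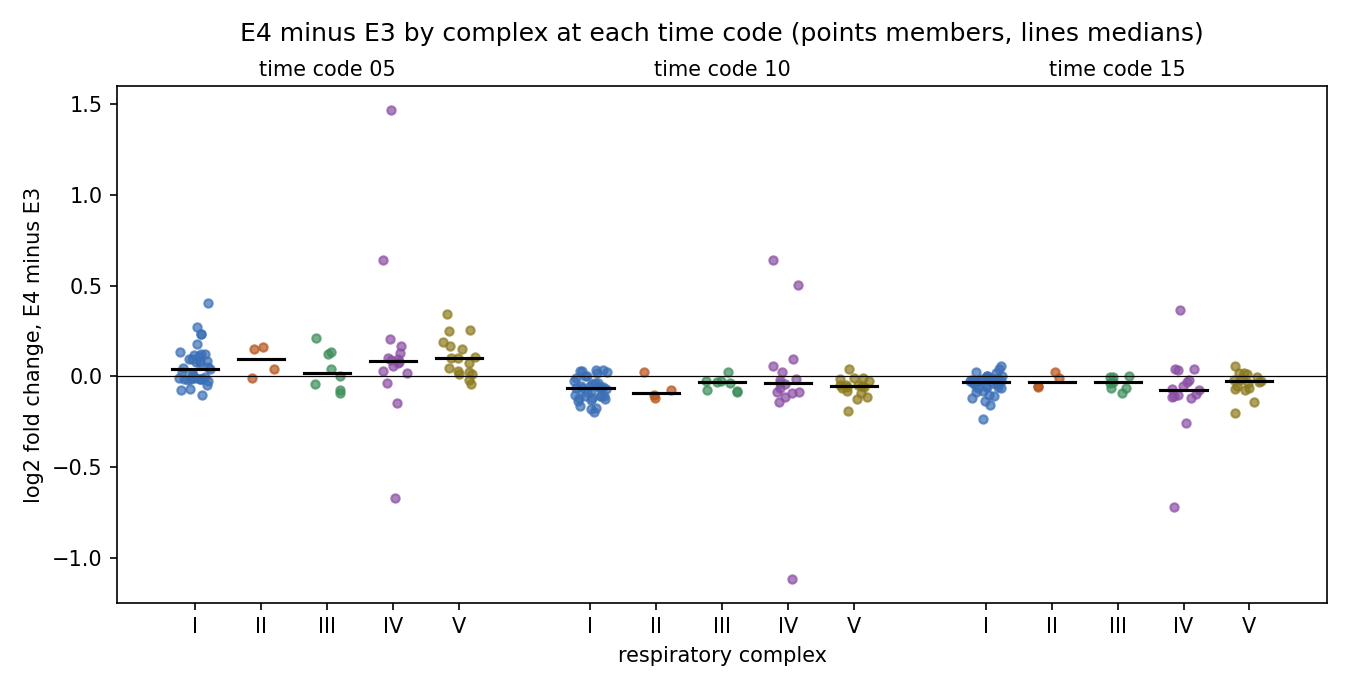
Log2 fold change of E4 minus E3 (y axis) for each member tested (points) by complex and time code, with a line at each complex's median. Over all members the medians are 0.065, -0.056 and -0.032 at time codes 05, 10 and 15, and 0 members pass the threshold.

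Within the column classes the E code called 0 members either. Among multiple-of-3 columns the median was 0.030, with 53 of 82 members above 0 (10670 of 20437 for all genes). 0 members and 0% of all genes were called, DESeq2 and limma-voom called 0 members, and 7 members had an unadjusted p under 0.05. The smallest p belonged to Atp5e, the epsilon subunit of the rotor (0.33, SE 0.12), and Uqcrc2, a core protein of complex III (-0.20, SE 0.071), both with adjusted p = 0.761. The median turned to -0.032 without E3-10 4 and rose to 0.091 without E3-10 1, where 19 members had an unadjusted p under 0.05. Cox6a2 in these columns lay at 0.854, 0.374, 1.31 and 0.964 CPM in the E3 libraries and, in the E4 libraries, at 0.948, 2.97, 0.893 and 2.01 CPM, with overlap (0.93, SE 0.41, adjusted p = 0.783).

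Among the 16 other columns the median was -0.030, with 66 of 82 members below 0 (10618 of 20437 for all genes). It was -0.0065 without E4-05 2 and -0.054 without E4-05 4. 0 members and 0% of all genes were called, DESeq2 and limma-voom called 0 members, and 1 member had an unadjusted p under 0.05. The smallest p belonged to Cox4i2 (0.32, SE 0.15) and Atp5k, the e subunit of the membrane part (-0.18, SE 0.11), both with adjusted p = 1.00. The test of the difference itself, column class by E code, called 0 members and 0% of all genes, with 7 members at an unadjusted p under 0.05 and 0 by DESeq2 and limma-voom. Its smallest p belonged to Uqcrc2 (-0.24, SE 0.088) and Ndufa2 (0.43, SE 0.16), both with adjusted p = 0.995. Column class by time code called 0 members and 0% of all genes, with 0 members at an unadjusted p under 0.05. Cox6b2 and Ndufv1 had its smallest p (0.116 and 0.173, adjusted p = 1 in edgeR), and DESeq2 and limma-voom called 0 members.

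Time codes called 0 members as well. Every titled month falls within a single time code, so a comparison of time codes is also a comparison of months. Time code and month cannot be separated here. Between time codes 10 and 05, averaged over E codes, 0 members and 0% of all genes were called, 0 members by DESeq2 or limma-voom, and 2 members had an unadjusted p under 0.05. Cox7a2 had the smallest p (0.15, SE 0.045, adjusted p = 0.981). At time code 05 the E3 libraries averaged 44.0 ± 1.46 CPM and the E4 libraries 48.1 ± 1.91 CPM (SD, n = 4 each). At time code 10 the averages were 51.9 ± 3.93 and 50.5 ± 1.5 CPM. The levels at time code 05 overlap those at 10. Atp5e followed (0.24, SE 0.093, adjusted p = 0.999).

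Between time codes 15 and 05, 0 members were called by edgeR, DESeq2 or limma-voom, against 0.0538% of all genes in edgeR, and 1 member had an unadjusted p under 0.05. Ndufb1 (-0.21, SE 0.098) and Cox7a2 (0.081, SE 0.045) had the smallest p, both with adjusted p = 0.956. Between 15 and 10, 0 members were called by the 3 tools, against 0.00489% of all genes in edgeR, and 4 members had an unadjusted p under 0.05. Uqcrb, a ubiquinone-binding subunit of complex III, had the smallest (0.20, SE 0.065, adjusted p = 0.563). At time code 10 the E3 libraries averaged 51.9 ± 3.56 CPM and the E4 libraries 50.3 ± 1.36 CPM (SD, n = 4 each). At time code 15 the averages were 58.9 ± 5.17 and 58.3 ± 6.96 CPM. Atp5e came next (-0.27, SE 0.092, adjusted p = 0.569). The 3 comparisons of time codes share libraries, as do those of the E code over time codes, and are no independent support for each other.

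Other genes around the pathway were read in the column classes from lists chosen with earlier results known. A list of 5 genes that the symbols miss had 3 higher and 0 lower. It mixes roles: Cyc1, Ndufab1 and Ndufa4l2 encode subunits or an isoform, Cycs the carrier cytochrome c, and Cox20 a protein of complex IV assembly that is also on the list of assembly factors. Cox20 stood at 0.93 (SE 0.18, adjusted p = 0.000167), and cytochrome c1, Cyc1, at 0.24 (SE 0.048, adjusted p = 0.000232). Ndufa4l2, the isoform of Ndufa4 known from low oxygen, stood at -0.035 (SE 0.098), and its sign turned with library totals alone (0.071). Assembly factors had 6 higher and 11 lower of 45, led by Ttc19 of complex III assembly (-0.82, SE 0.045, adjusted p = 1.14e-11) and Coa5 (-0.33, SE 0.054, adjusted p = 2.36e-05). Electron carriers and coenzyme Q enzymes had 6 higher and 3 lower of 16, with Etfa of fatty acid oxidation at 0.56 (SE 0.051) and Coq4 at -0.60 (SE 0.062).

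Feeding pathways differed in direction. The citric acid cycle and pyruvate entry list had 12 higher and 3 lower of 21 (median 0.13), among them isocitrate dehydrogenase subunit Idh3g (0.26, SE 0.040) and pyruvate carboxylase Pcx (0.29, SE 0.054). Glycolysis had 4 higher and 13 lower of 19 (median -0.22). Its smallest p belonged to Aldoc, the aldolase of astrocytes and Purkinje cells (0.99, SE 0.072), and to the liver-type phosphofructokinase Pfkl (-0.71, SE 0.063). Astrocyte markers averaged 7.91 to 8.20 log2 CPM in the 8 and 7.29 to 7.86 in the others, and their part was not tested. Regulators of mitochondrial biogenesis had 11 higher and 2 lower of 18, led by Gabpb2 (1.29, SE 0.10) and Ppargc1b (0.97, SE 0.086). Nrf1 itself stood at 0.32 (SE 0.071) and Gabpa at 0.31 (SE 0.050). Mitochondrial ribosomal proteins had 7 higher and 6 lower of 26, with Mrps6 (0.38, SE 0.066) and Mrps10 (0.21, SE 0.052) at the smallest p. The hypoxia list had 3 higher and 3 lower of 12, with the sensor-controlled factor Hif1a at 0.76 (SE 0.059) and the kinase Pdk1 at -0.75 (SE 0.086). These counts stand against 57.5% of all genes called.

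The genes most like Cox6a2 over the 24 libraries, after the mean of each column class was removed, were Gpr12 (Pearson r 0.768), Otx1 (0.711), Ttll10 (0.710), Cpe (0.707) and Nr2e1 (0.704). Those most like Cox4i2 were Hsd17b14 (0.756), 2700070H01Rik (0.732), Nkap (0.724), Btn1a1 (0.705) and Ccdc134 (0.691). They are the top 5 of all genes tested and are given as a description. Some have very low levels, with a median of 0.102 CPM for Ttll10, 0.201 for Hsd17b14 and 0.240 for Btn1a1.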

How the data were processed

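Polyadenylated RNA of mouse brain was measured in 24 libraries. TRIzol extraction and NovaSeq sequencing are given per the labels' protocols. The file the authors deposited holds raw counts per gene symbol. Per the submitters' processing notes, HISAT2 2.1.0, featureCounts 2.0.6 and build mm39 were used; the annotation and strand setting are not given in the sources used here. Libraries were joined to columns by the number in their labels. Even numbers made up 62.6% to 70.8% of the counts from 1 to 19 in each library, which read pairs counted as 2 reads would give.

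Genes were kept by filterByExpr over the 6 groups (20437 of 40836). edgeR 4.0.16 in R 4.3.3 fitted TMM-scaled counts with quasi-likelihood tests, with 1 coefficient per group and 1 for the column class, leaving 17 residual degrees of freedom. Interactions of the class with E code and time code were added in further fits. Log2 CPM used a prior count of 2. The procedure was tested on simulated data. Precision follows the totals per library and the 4 libraries per group. Alternatives were RLE and upper-quartile factors, 2 filters, DESeq2 1.42.0, limma-voom 3.58.1, a replicate block, month, a 3-level column class, leaving out libraries, and a threshold of 0.01. Halved counts and library totals alone were chosen after seeing the data, as was the band of 0.33.

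The members, the lists and the column class were chosen with earlier results of these data known. Named genes are the complex IV isoforms, the 3 largest calls in each direction per complex, the member with the highest median CPM per complex (that of complex I is not reported here), the 2 with the smallest p in each other comparison and the 2 with the smallest p per list. Others (Cox5a, Atp5a1, Cox6a2 by time code, Atp5g1, Atp5g2, Nrf1, Gabpa and the pairs named for their correlation) were chosen after their values were seen. Promoter sequences are from RefSeq (69 of 84 matched by symbol), and transcript lengths from GENCODE M21 of GRCm38 (83 of 84 matched, 2 by older symbols). No coordinates are given for the counted genes, since the reference used here is GRCm38 and the counts are on mm39.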

Additional observations from a re-analysis of the deposited data

Results flagged for a closer look

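Dixon's criterion marked 9 of 112 sets of 4 to 10 libraries in which 1 library stands apart from the rest. Chance marks about 1 in 20, but E3-05 2, E4-10 2 and E3-15 3 are the only multiple-of-3 columns of their groups, so the 4 values given for them restate the difference between the column classes. E3-10 4 is such a column too. Cox6b2 lay at 3.19 CPM in E3-05 2 (others of E3-05 0.794 to 1.09) and at 2.57 CPM in E3-10 4 (others of E3-10 1.36 to 1.53). Ndufb9 lay at 78.5 CPM in E3-05 2 (others 94.9 to 95.4) and at 89.5 CPM in E4-10 2 (others 99.9 to 101). Sdhb lay at 82.9 CPM in E3-15 3 (others 97.1 to 99.7). Among the 8 multiple-of-3 columns, E3-10 1 stood at 103 CPM for Sdhb (others 82.3 to 89.5), and its complex II median was 0.244 (others -0.0036 to 0.114). Within its group of 4, Cox4i2 lay at 2.06 CPM in E4-10 4 (others of E4-10 1.63 to 1.69). Cox8a lay at 327 CPM in E3-10 2 (others of E3-10 199 to 213, of which E3-10 1 and E3-10 4 are multiple-of-3 columns). Over the 16 other columns Cox8a ran from 199 to 352 CPM.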

How the results depend on the processing

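Calls for the E code, the time codes and the interactions stayed at 0 members under every alternative that gave a value, so only the column class is described. Members called higher in multiple-of-3 columns numbered 24, but 15 without the 2 libraries with Gh above 1000 CPM (E3-05 4 and E4-10 2), 43 with library totals alone and 12 at an adjusted p under 0.01. Members called lower numbered 10, but 6 without the 3 libraries with Hbb-bs above 100 CPM (E3-05 1, E3-05 2 and E4-05 1), 4 with library totals alone and 6 at an adjusted p under 0.01, where 18 were called in all. The median of members was 0.149 with library totals alone. Leaving out 1 library gave 25 to 34 calls, 15 to 24 higher (15 without E3-10 1 and without E4-15 3) and 5 to 14 lower (5 without E3-15 3), and medians of 0.015 to 0.070. Genes near 0 changed sign. With library totals alone Cox4i1 stood at 0.070, Cox6b1 at 0.063 and Ndufa4l2 at 0.071. Cox7a2 stood at -0.0099 with RLE factors, -0.0098 with DESeq2, -0.0047 with month as covariate, -0.0011 without the 3 Hbb-bs libraries and -0.0099 without the 2 Gh libraries. Leaving out 1 library gave -0.031 to 0.031 for Cox7a2 (negative in 20 of 24), -0.075 to 0.0020 for Cox4i1 and -0.10 to 0.047 for Ndufa4l2. The cause was not tested. DESeq2 called 33 members (40.2%, with 59.4% of all genes called) and limma-voom 34 (41.5%, with 58.9%). The unfiltered fit called 26 (31%, with 34.8%) and halved counts 37 (45.7%, with 61.8%). With library totals alone 57.3% of members and 60.3% of all genes were called. The gap to all genes was thus small with that scaling and in the unfiltered fit. Without the 2 Gh libraries the shares were 31.7% and 54.1%. Without the 3 Hbb-bs libraries they were 28% and 49.3%.

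Over all groups together, library numbers showed no pairing. Same-numbered libraries had a median r of -0.015 (60 pairs), different numbers 0.013 (180 pairs), and 4 of 24 libraries correlated best with their own number. These pairs also join different time codes, so a pairing of E3 with E4 within a time code was not tested. With a replicate block 32 members were called against 34, and 0 in each other comparison. The month covariate was not run for time codes, and the fits without the class term or without the 8 columns give no class value.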
